A study of Homo sapiens with 4 samples.

Results

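The genes described here are the zinc finger genes of human chromosome 19 whose symbol is ZNF followed by a number and at most 1 letter, and that reached 20 or more counts summed over 4 RNA sequencing libraries. Of 261 genes with such a symbol on this chromosome in a table of 56303 genes, 218 met this limit and are called members below. The other 43 fell short of it, and 21 of them were at 0 in all 4 libraries. Members were thus chosen by their name, their chromosome and their summed count in these same libraries, and their presence is not a result. Just inside it were ZNF66, with 7, 8, 4 and 2 counts in EJ vector, EJ circ, T24T vector and T24T circ, and ZNF154, with 7, 6, 7 and 3. Just outside were ZNF114, with 0, 1, 5 and 10 counts, and ZNF763, with 3, 4, 5 and 2. The label held: 211 members were annotated as protein coding and 5 as pseudogenes, and 2 matched no annotated type.

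The libraries came from EJ and T24T, cell lines of human bladder cancer. Each line had been transfected with the circular RNA hsa_circ_0008399 (circ) or with the vector alone, and 1 library was made per line and transfection. The study sought genes that act downstream of this circular RNA. Total counts ranged from 14703455 in EJ circ to 18057768 in T24T circ. The epithelial keratin genes KRT7, KRT8 and KRT18 had from 2164 to 14341 counts in each library, while KRT19 had 3 or 4, GATA3 at most 1, TP63 at most 3 and UPK3A 0. Of the other epithelial markers UPK2 had from 23 to 48 counts, and EPCAM had 7 and 4 in EJ and 117 and 111 in T24T. The mesenchymal gene VIM had from 9479 to 12309 counts, and CDH2 had 1728 and 1501 in EJ and 169 and 142 in T24T. The leukocyte genes PTPRC and CD3E and the fibroblast gene DCN were at 0 in every library. Of the other leukocyte and fibroblast markers CD14 had at most 2 counts, PDGFRB had 1 in each library and COL1A1 had from 4 to 16. The endothelial genes PECAM1, VWF and CDH5 had at most 9, 2 and 5.

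Most ZNF genes encode Krüppel-type zinc finger proteins, in which a string of fingers reads a DNA sequence. Many also carry a KRAB domain, which recruits the corepressor TRIM28 and through it the histone methyltransferase SETDB1, so that the bound DNA is silenced. Chromosome 19 holds the densest groups of these genes in the human genome, laid out in tandem by repeated duplication, and many of their products bind transposable elements.

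The members were expressed at low levels. Their mean level over the 4 libraries, as RPKM, which scales reads to the length of the gene and to the depth of the library, ran from 0.0629 to 23.8 with a median of 1.08, and 116 members reached 1 or more. The highest was ZNF146, which encodes a protein made almost wholly of fingers, at 23.97 and 27.1 RPKM in the EJ vector and circ libraries and 20.8 and 23.4 in those of T24T. ZNF428 followed with 21.5, 21.01, 13.3 and 15.9 RPKM in the same order. ZNF580 had 15.1, 13.9, 8.19 and 8.64 RPKM, though it shares exon positions with ZNF581 and CCDC106. ZNF888 had 16.8, 12.5, 7.75 and 7.24 RPKM, and ZNF787 had 10.8, 11.2, 8.69 and 9.71. In all 5 both T24T libraries lay below both EJ libraries in RPKM, but with the scaling used in the tests below ZNF146 in T24T circ lay above EJ vector. With that scaling 56.9% of tested members and 29.1% of all genes tested had both T24T libraries below both EJ libraries. In RPKM this share was not computed. In the edgeR test described next, ZNF428 (log2 fold change of T24T over EJ -0.48 ± 0.11, ± being the standard error of the fit, adjusted p = 0.000491) and ZNF888 (-0.90 ± 0.19, 0.000231) passed. ZNF146 (-0.15 ± 0.08, edgeR adjusted p = 0.167) and ZNF787 (-0.19 ± 0.10, 0.133) did not. All members summed took 0.206% and 0.209% of the counts in EJ vector and EJ circ and 0.159% in either T24T library. The share differed more between the lines than between the transfections.

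In the edgeR test members differed between the lines about as often as all genes, but mostly in 1 direction. T24T was compared with EJ by the quasi-likelihood test of edgeR on counts, with the transfection as a block, scaling by trimmed means (TMM) and Benjamini-Hochberg adjustment over all 17689 genes tested, and a gene was called at an adjusted p of 0.05. Of the 216 members that passed the filter on low counts, 75 were lower and 13 were higher in T24T. Lower calls made up 34.7% of members, against 19.5% of all genes tested, and 21.9% of all genes were higher. Calls in either direction made up 40.7% of members and 41.4% of all genes. The median log2 fold change over the members was -0.32, against 0.01 over all genes, and it was -0.25 between the vector libraries and -0.32 between the circ libraries. Among 3418 genes with a mean count in the range of the middle of the members (49.3 to 165), 16.4% were called lower. Without any model, the scaled counts (CPM, a share of the library that ignores gene length) of both T24T libraries lay below both EJ libraries in 123 members (56.9%, against 29.1% of all genes) and above both in 30 (13.9%, against 31.4%). With 1 library per line and transfection the fit has 1 residual degree of freedom and rests on spread pooled over genes. Its p-values measure only the spread between these libraries, and fewer cells of a kind cannot be told apart from less RNA per cell. DESeq2 called 1 member higher and 17 lower, 8.33% of members against 18.2% of all genes.

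Where a member lay on the chromosome went with the direction of its line difference. In hg38 coordinates, the last ZNF gene of the short arm ended at 24129961 and the first of the long arm started at 30228290. Of 69 short-arm members, 6 (8.7%) were lower and 10 (14.5%) higher in T24T by the edgeR test, with a median log2 fold change of 0.07. Of 147 long-arm members, 69 (46.9%) were lower and 3 higher, with a median of -0.45, and 127 had a value below 0. The 3 long-arm members called higher were ZNF793, ZNF577 and ZNF610. Other genes of the same arms differed in the same sense, with medians of 0.11 over 537 short-arm genes and -0.21 over 523 long-arm genes. Of these short-arm genes 10.2% were lower and 28.3% higher, so short-arm members were called higher less often than their neighbours. Of the long-arm genes 175 (33.5%) were lower and 14.9% higher. Long-arm genes without a ZNF symbol that lie within a block had a median of -0.46 (103 genes), and those outside the blocks had -0.18 (420 genes). These genes were set apart by symbol alone. They include zinc finger genes with other names, and genes that share exon positions with members were not removed. A median below 0 on the long arm was thus also seen in genes without a ZNF symbol, though outside the blocks it was smaller in size than in the members. ZNF genes on the other chromosomes had a median of -0.11, with 62 lower and 33 higher of 228.

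**Figure D1:**
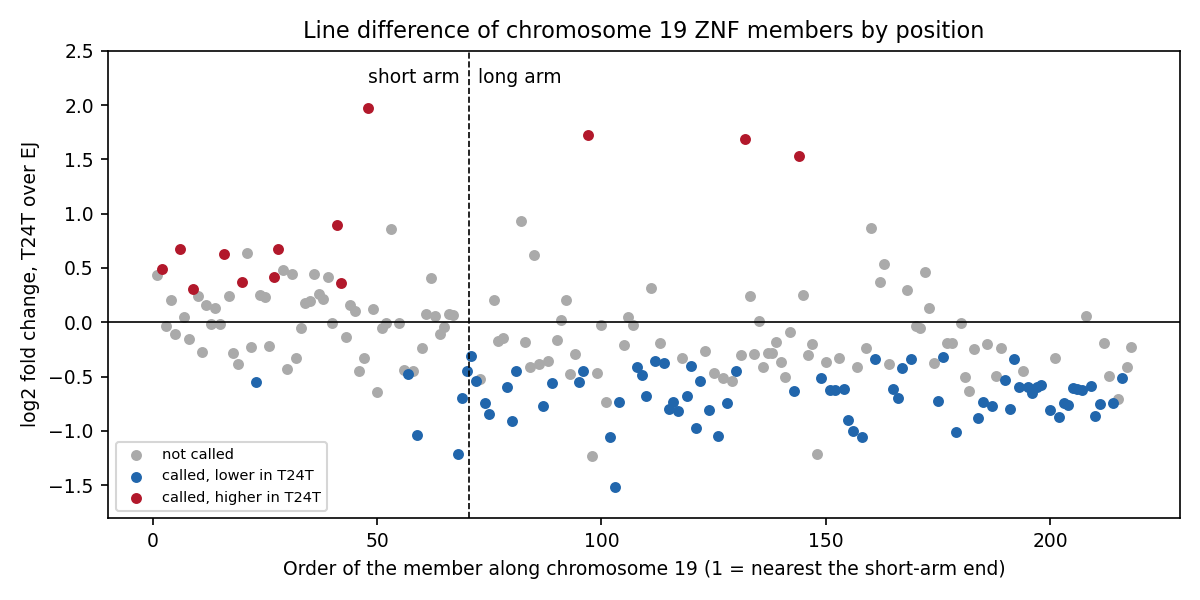
Each point is 1 of 216 members, placed by its order along chromosome 19 (x axis, rank) and by its log2 fold change of T24T over EJ (y axis), coloured by the edgeR call. Right of the dashed line, which parts the arms, 127 of 147 points lie below 0, while the short-arm points scatter around a median of 0.07.

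A closer view came from blocks, runs of ZNF genes in which no gap between neighbours exceeds 500 kb. There were 21 blocks, numbered from the short-arm end, and 9 of them held 5 or more tested members. Over all genes tested, 21.9% were higher and 19.5% lower in T24T. The block of the short arm at 11483427-12640098 (block 4) had 24 tested members, 5 higher and 1 lower, and a median of 0.24. Its 15 other tested genes had 0 higher and 1 lower and a median of 0.18. The pericentromeric block at 19668796-24129961 (block 7), which spans 41 ZNF genes of which 27 were members, had 5 lower and 1 higher among 26 tested and a median of -0.05. Its 19 other tested genes had 3 lower and 3 higher and a median of -0.21. Block 7 holds ZNF91, a repressor of SVA elements, which had 8.80, 7.08, 8.19 and 8.57 CPM in EJ vector, EJ circ, T24T vector and T24T circ. ZNF91 did not pass the edgeR test (0.08 ± 0.17, adjusted p = 0.735). It was chosen after its values were seen.

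On the long arm the block at 43525497-44500524 (block 14) had 15 lower and 0 higher among 22 tested members, with a median of -0.50. Its 19 other tested genes had 7 lower and 2 higher and a median of -0.38. The block nearest the end of the arm, 57191500-58481230 (block 21), had 23 lower and 0 higher among 38, a median of -0.60, and 37 values below 0. Its 31 other tested genes had 13 lower and 0 higher and a median of -0.62. Between blocks 14 and 21 lay the large block at 51571298-53580269 (block 19), with 13 lower and 2 higher among 39 members and a median of -0.34. The 20 other tested genes of block 19 had 6 lower and 2 higher and a median of -0.56. The block at 36182060-37817300 (block 11) had 7 lower and 1 higher among 25 and a median of -0.38, and the block at 55476332-56671783 (block 20) 3 lower of 10 and -0.19. The other tested genes had 3 lower and 1 higher of 15 and -0.27 in block 11, and 4 lower of 10 and -0.46 in block 20. In the small block 12, at 39984134-40090938, all 3 members were lower: ZNF546 (-1.06 ± 0.37, edgeR adjusted p = 0.0210), ZNF780B (-1.52 ± 0.25, 7.05e-06) and ZNF780A (-0.73 ± 0.16, 0.000292). ZNF780A and ZNF780B share exon positions with other genes of the table.

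**Figure D2:**
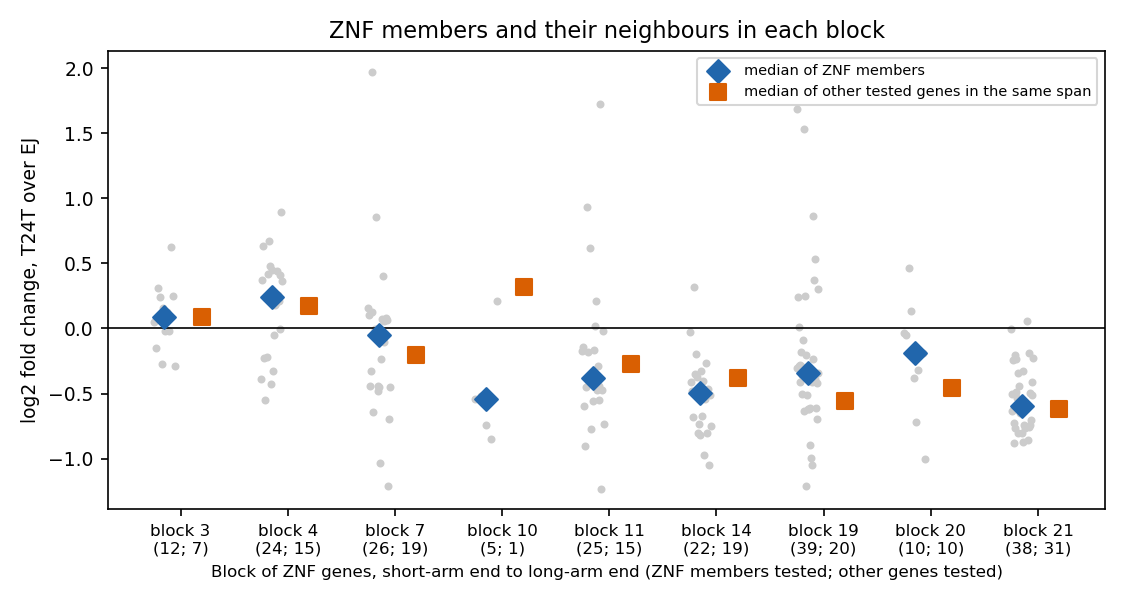
For the 9 blocks with 5 or more tested members, grey points are members, blue diamonds their median and orange squares the median of the other tested genes in the same span, all as log2 fold change of T24T over EJ (y axis). Blocks 3 and 4 lie above 0 in both medians, and blocks 7, 11, 14, 19, 20 and 21 lie below 0 in both, while in block 10 the members' median is -0.54 and the 1 other gene is at 0.32.

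ZNF702P and ZNF321P, pseudogenes of block 19, were among the members with the smallest adjusted p. ZNF702P, at 52968251-53037898 on the minus strand, led with 48.6 and 46.1 CPM in EJ vector and EJ circ and 22.1 and 23.6 in T24T vector and T24T circ. Its log2 fold change was -1.05 ± 0.10 (edgeR adjusted p = 5.12e-10). ZNF321P had 16.0, 17.5, 8.07 and 8.74 CPM in that order (-0.996 ± 0.14, edgeR adjusted p = 6.8e-07). In both pseudogenes the T24T libraries lay below the EJ libraries, an order that picking by a small p favours. Both share an exon position with another gene.

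Among protein-coding members, ZNF544 had 58.4 and 74.6 CPM in EJ vector and EJ circ and 30.5 and 43.3 in T24T vector and T24T circ (-0.86 ± 0.09, edgeR adjusted p = 4.98e-09). ZNF234, at 44141557-44160309 with no shared exon, had 21.9, 23.8, 11.7 and 11.5 CPM (-0.97 ± 0.13, edgeR adjusted p = 1.62e-07). ZNF304, which has been tied to silencing of tumour suppressor genes in colorectal cancer cells, had 17.2, 21.2, 10.8 and 9.999 CPM (-0.88 ± 0.14, edgeR adjusted p = 3.88e-06). In all of them both T24T libraries lay below both EJ libraries, an order that picking by a small p favours. ZNF71, first described as a gene induced by TNF in endothelium, had 13.0, 12.8, 5.54 and 7.31 CPM (-1.01 ± 0.16, edgeR adjusted p = 4.62e-06). ZNF260, known as a regulator of cardiac genes, had 14.7, 16.2, 6.86 and 9.71 CPM (-0.91 ± 0.15, edgeR adjusted p = 6.53e-06). ZNF580, named above for its level, had 39.6, 36.9, 22.4 and 24 CPM (-0.72 ± 0.11, edgeR adjusted p = 1.65e-06). Over the 75 members called lower the log2 fold changes ran from -1.52 to -0.31, with a median of -0.63. Those of largest size besides the above were ZNF681 (-1.21), ZNF112 (-1.05) and ZNF708 (-1.03). ZNF681 had 31, 29, 8 and 21 counts, and its log2 ratio was -1.77 between the vector libraries and -0.64 between the circ libraries. In ZNF546, with 33, 26, 13 and 18 counts, these were -1.27 and -0.69.

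The members higher in T24T were fewer, and those with the largest log2 fold changes were low in counts. ZNF93, at 19900913-19935575, a repressor of LINE elements, had 0.937 and 0.668 CPM in EJ vector and EJ circ and 3.49 and 2.86 in T24T vector and T24T circ, from 15, 10, 58 and 50 counts. Its log2 fold change was the largest among those members (1.97 ± 0.34, edgeR adjusted p = 1.34e-05). ZNF793 had 10, 15, 33 and 60 counts (1.72 ± 0.35, edgeR adjusted p = 0.000148), and ZNF610 had 4, 18, 27 and 43 (1.53 ± 0.40, 0.00264). ZNF577 had 1, 6, 6 and 20 counts (1.69 ± 0.64, edgeR adjusted p = 0.0327), so its EJ circ and T24T vector libraries did not differ in count. The other named members called higher were on the short arm. ZNF561 had 11.5, 9.95, 16.9 and 16.2 CPM (0.63 ± 0.14, edgeR adjusted p = 0.000334), and ZNF433 had 70, 86, 129 and 146 counts (0.68 ± 0.18, 0.00282). ZNF358 had 6.99, 5.14, 11.7 and 7.71 CPM (0.67 ± 0.17, edgeR adjusted p = 0.0014). ZNF791 (0.36 ± 0.11, edgeR adjusted p = 0.00908), ZNF317 (0.31 ± 0.10, 0.0137) and ZNF490 (0.90 ± 0.35, 0.0402) were also higher. With scaling by library size alone ZNF317 (edgeR adjusted p = 0.0511) and ZNF490 (0.0533) no longer passed. ZNF490, with 17, 17, 43 and 27 counts, was 1.19 higher in log2 units between the vector libraries and 0.40 between the circ libraries. ZNF610 differed likewise, by 2.23 and 0.96. ZNF382, a KRAB gene silenced by methylation in several carcinomas, did not pass (0.93 ± 0.38, edgeR adjusted p = 0.0507), and its value rested on T24T circ, with 53 counts against 16, 15 and 16 in EJ vector, EJ circ and T24T vector. All 88 members called in either direction had the same sign between the vector libraries as between the circ libraries. The calls were made from these same libraries and favour such members, so this is no separate replication.

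**Figure D3:**
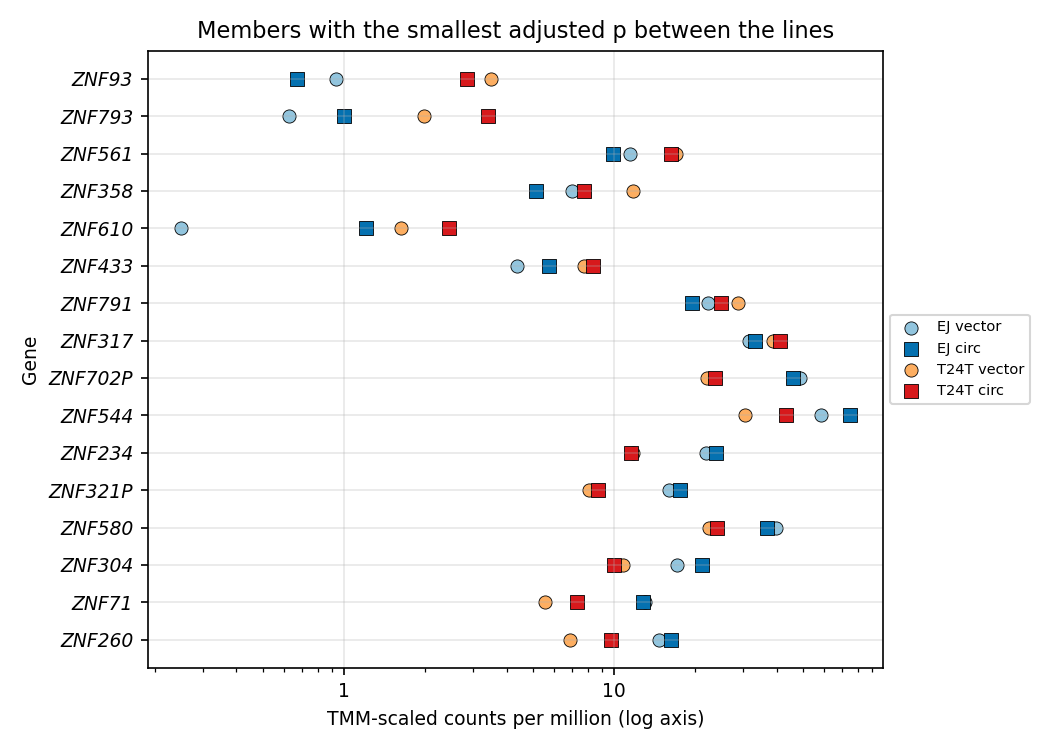
Scaled counts as CPM (log x axis) in each of the 4 libraries for the 8 members per direction with the smallest adjusted p between the lines. In ZNF702P and ZNF234, for example, both EJ libraries sit well right of both T24T libraries, and in ZNF93 both sit left.

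Promoters give what the members share in sequence. A RefSeq promoter, from 250 bases before to 50 after the gene start (GRCh38.p14), was matched to 191 members. The median number of CG dinucleotides was 20, against 14 over all 34796 promoters of the table, and was also 20 in the members lower in T24T and 21 in those higher. The 34796 promoters were not limited to genes expressed in these libraries, while the members were chosen by their counts. The shares below are set beside the same unlike background. Short sequences were searched on both strands. The CCAAT box occurred in 53.4% of member promoters (34.6% of all promoters), GGGCGG, the SP1 box, in 66.5% (44.9%) and TATAAA, the TATA box, in 2.09% (11.6%). TGACGTCA, the CRE, occurred in 3.67% (1.84%), the NRF1 site in 2.62% (1.23%) and the YY1 site in 1.05% (0.856%). CCGGAAGT, the core bound by ETS factors, occurred in 40 of 191 (20.9%), against 4.13% of all promoters. ZNF promoters of chromosome 19 that are no member held this core in 7 of 36 (19.4%), so it was not particular to the members. A match is a description of the letters and not a measured binding site.

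The ETS core was unevenly placed. It was in 1 of 62 promoters of tested short-arm members (1.61%) and in 39 of 127 of the long arm (30.7%). Block 21 alone held 21 in 36 member promoters (58.3%), against 19 of 155 outside it (12.3%), while 6 of 25 other promoters inside the block (24%) and 35 of 283 ZNF promoters on other chromosomes (12.4%) had it. By line call, the core was in 22 of 62 members lower in T24T (35.5%), 0 of 12 higher and 18 of 115 not called (15.7%). Within the long arm these shares were 39.3% of 56 lower members and 24.6% of 69 not called. Within block 21 the median log2 fold change was -0.60 in 21 members with the core and -0.42 in 14 without. Of the 43 matches over all member promoters, 34 read ACTTCCGG on the gene's strand. The 43 began from 169 bases before to 8 after the gene start, with a median of 18 before it.

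Shown here are the 250 bases before the RefSeq start, 5′ to 3′ on the strand of the gene. The first 5 have the smallest adjusted p among members lower in T24T with an ETS core in this stretch, ZNF93 leads the members higher in T24T, and ZNF544 leads the rise with circ. The capitals mark the ETS core. The stretches are chr19:57889038-57889287 (minus strand) for ZNF814, chr19:57746565-57746814 (plus) for ZNF776, chr19:58182811-58183060 (plus) for ZNF274, chr19:57613992-57614241 (plus) for ZNF134, chr19:44002707-44002956 (plus) for ZNF230, chr19:19900696-19900945 (plus) for ZNF93 and chr19:58228664-58228913 (plus) for ZNF544.
ZNF814: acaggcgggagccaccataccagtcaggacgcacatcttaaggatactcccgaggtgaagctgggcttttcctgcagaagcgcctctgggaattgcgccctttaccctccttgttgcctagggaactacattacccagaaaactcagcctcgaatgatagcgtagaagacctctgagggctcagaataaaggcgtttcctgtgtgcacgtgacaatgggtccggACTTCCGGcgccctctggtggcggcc
ZNF776: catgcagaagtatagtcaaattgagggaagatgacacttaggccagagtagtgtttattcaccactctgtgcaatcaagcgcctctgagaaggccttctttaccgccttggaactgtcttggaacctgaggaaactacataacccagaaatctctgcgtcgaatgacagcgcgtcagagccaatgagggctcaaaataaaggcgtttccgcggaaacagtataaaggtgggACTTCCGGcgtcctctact
ZNF274: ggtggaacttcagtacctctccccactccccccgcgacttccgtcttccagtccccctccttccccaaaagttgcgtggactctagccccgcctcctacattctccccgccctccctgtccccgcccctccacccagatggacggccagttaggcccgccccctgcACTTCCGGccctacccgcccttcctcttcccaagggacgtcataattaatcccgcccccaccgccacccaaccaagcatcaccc
ZNF134: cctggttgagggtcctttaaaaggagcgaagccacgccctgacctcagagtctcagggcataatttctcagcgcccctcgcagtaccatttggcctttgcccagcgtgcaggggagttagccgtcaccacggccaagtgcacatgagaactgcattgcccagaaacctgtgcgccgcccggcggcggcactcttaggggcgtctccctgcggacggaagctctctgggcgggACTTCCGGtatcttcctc
ZNF230: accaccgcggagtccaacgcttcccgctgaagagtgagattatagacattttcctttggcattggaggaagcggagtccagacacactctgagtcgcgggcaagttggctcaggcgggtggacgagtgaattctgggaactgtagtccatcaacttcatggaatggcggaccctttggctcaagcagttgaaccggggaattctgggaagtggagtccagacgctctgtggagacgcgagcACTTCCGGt
ZNF93: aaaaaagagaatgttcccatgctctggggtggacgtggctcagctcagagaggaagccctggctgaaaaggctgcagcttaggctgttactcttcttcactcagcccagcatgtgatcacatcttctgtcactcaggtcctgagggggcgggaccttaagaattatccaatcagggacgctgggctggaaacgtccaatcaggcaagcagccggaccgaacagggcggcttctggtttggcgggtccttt
ZNF544: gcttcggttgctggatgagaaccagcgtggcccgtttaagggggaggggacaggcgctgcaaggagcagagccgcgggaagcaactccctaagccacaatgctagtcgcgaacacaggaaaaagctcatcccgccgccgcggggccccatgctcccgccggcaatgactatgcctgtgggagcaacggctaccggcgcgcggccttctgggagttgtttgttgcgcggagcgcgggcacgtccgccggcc

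The 5 promoters with the core belong to genes picked for their line differences, so the values below are no result about the core. ZNF814 had 23.7, 24.8, 15.7 and 12.9 CPM in EJ vector, EJ circ, T24T vector and T24T circ (-0.77 ± 0.12, edgeR adjusted p = 6.77e-06), and it overlaps exons of other genes. ZNF776 had 15.05, 18.1, 9.27 and 9.66 CPM (-0.80 ± 0.14, edgeR adjusted p = 1.84e-05) and ZNF230 had 9.18, 9.62, 5.12 and 5.66 (-0.80 ± 0.17, 0.000265). ZNF134 had 17.1, 22.0, 10.9 and 14 CPM (-0.65 ± 0.13, edgeR adjusted p = 0.000105). ZNF544, which was lower in T24T too, and ZNF93 have no core in the stretch shown.

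The transfection moved few members. Circ was compared with vector by the same edgeR fit, with the line as a block. Of 216 tested members, 5 were higher and 2 lower with circ (4 and 3 with scaling by library size alone), 3.24% in all. The share was 12.7% of all genes tested (7.13% higher and 5.56% lower) and 8.57% of the genes in the members' middle range of counts. Of 228 ZNF genes on other chromosomes, with a median mean count of 158, 17 were higher and 2 lower (8.33%). The median log2 fold change was 0.0036 over the members, 0.0035 in EJ alone and -0.02 in T24T alone. The ratio had the same sign in both lines in 139 members (64.4%), against 65.7% of all genes. Across the 216 members the ratios of the lines had a Pearson correlation of 0.42 (0.36 over all genes), a description over genes that share their libraries. The members' median mean count, 87.9, was below the 199.75 of all genes, which limits what could be detected. Limma-voom called 8 members (13.3% of all genes). DESeq2 called 0 members, with 1.89% of all genes called, while limma on log2(RPKM + 1) and edgeR without the block called 0 of all genes.

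**Figure D4:**
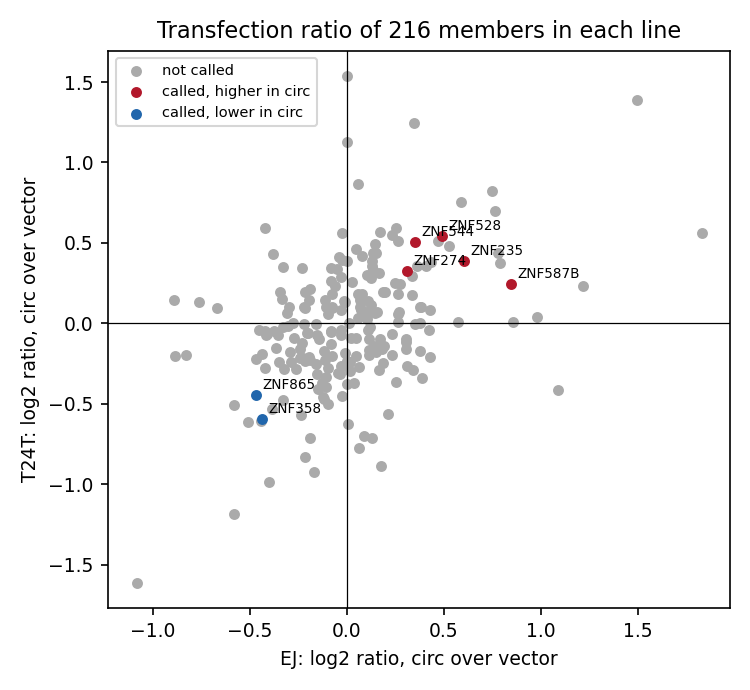
Each point is 1 of 216 members, with its log2 ratio of circ over vector in EJ (x axis) and in T24T (y axis). The 7 members that passed the edgeR test are coloured and named, and they lie in the quadrants where both lines have the same sign. The test was made on these same libraries and favours members whose lines agree, so this is no separate replication.

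The 5 members that rose lie on the long arm, which holds 147 of the 216 tested members. ZNF544, ZNF587B and ZNF274 are in block 21, where 3 of 38 members (7.89%) rose, near the 7.13% of all genes, as did 3 of its 31 other genes. ZNF544 (chr19:58228594-58277495, plus strand) had 935 and 1117 counts in EJ vector and EJ circ and 506 and 758 in T24T vector and T24T circ. It rose by 0.43 ± 0.09 in log2 units (edgeR adjusted p = 0.00225), with a fold of 1.28 in EJ (95% exact binomial interval 1.17 to 1.40) and 1.42 in T24T (1.27 to 1.59). These intervals cover counting error only. ZNF544 shares exon positions with other genes of the table. ZNF528 (chr19:52397849-52418412, plus strand), which shares none, had 143, 189, 173 and 266 counts and rose by 0.52 ± 0.14 (edgeR adjusted p = 0.0125). Its folds were 1.41 (1.13 to 1.77) in EJ and 1.46 (1.20 to 1.78) in T24T. The circ calls favour members whose lines agree, so agreement of the lines in a called member is no separate replication.

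ZNF274 (chr19:58183029-58213562, plus strand) encodes a factor that binds the ends of other ZNF genes and recruits SETDB1 there. It had 520, 604, 357 and 471 counts in EJ vector, EJ circ, T24T vector and T24T circ and rose by 0.32 ± 0.11 (edgeR adjusted p = 0.0437), with folds of 1.24 (1.10 to 1.40) and 1.25 (1.09 to 1.44). This call was lost with scaling by library size alone (edgeR adjusted p = 0.0572) and without the filter on low counts (0.0813). The levels in EJ were higher than in T24T under either transfection.

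ZNF587B (chr19:57819741-57846238, plus strand) had 137, 232, 107 and 134 counts and rose by 0.59 ± 0.16 (edgeR adjusted p = 0.0156). Most of that was in EJ, with a fold of 1.81 (1.46 to 2.25), while the interval in T24T, 1.19 (0.915 to 1.55), included 1. ZNF235 (chr19:44228729-44305046, minus strand) had 121, 173, 78 and 108 counts and rose by 0.52 ± 0.17 (edgeR adjusted p = 0.0417), with folds of 1.53 (1.21 to 1.95) and 1.31 (0.973 to 1.78). ZNF587B shares exon positions with ZNF586, and ZNF235 with ZNF227 and ZNF233, so their reads may be split among these genes.

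The members that fell were ZNF865 and ZNF358. ZNF865 (chr19:55605405-55617269, plus strand), with no shared exon, had 236, 159, 267 and 206 counts and a log2 fold change of -0.46 ± 0.14 (edgeR adjusted p = 0.0221). Its folds were 0.721 (0.586 to 0.885) in EJ and 0.732 (0.608 to 0.882) in T24T. ZNF358 (chr19:7515292-7521026, plus strand), which was also higher in T24T than in EJ, had 112, 77, 195 and 135 counts and a log2 fold change of -0.54 ± 0.17 (edgeR adjusted p = 0.0292). Its folds were 0.735 (0.543 to 0.992) and 0.657 (0.524 to 0.823), and it shares exon positions with other genes.

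**Figure D5:**
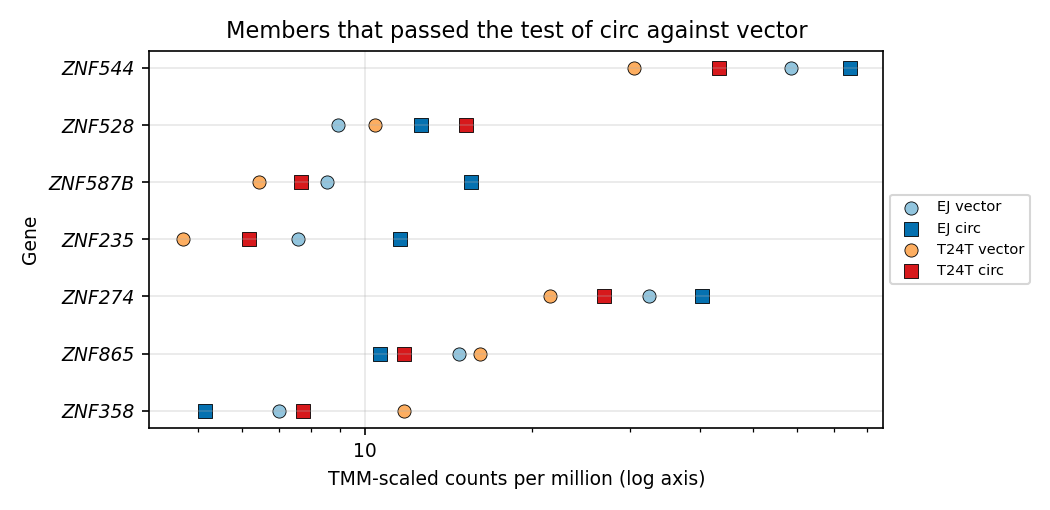
Scaled counts as CPM (log x axis) in the 4 libraries for the 7 members that passed the test of circ against vector. In the upper 5 genes each circ library (square) lies right of the vector library (circle) of the same line, and in ZNF865 and ZNF358 left of it. The test favours such genes.

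Members of the pathway through which KRAB zinc finger proteins act were counted in the same fit. Of 30 tested corepressor genes, 5 were higher and 1 lower with circ, against 7.13% and 5.56% of all genes, and 3 were higher and 15 lower in T24T than in EJ, against 21.9% and 19.5%. The median mean count of these genes was 1107, against 199.75 over all genes, which makes a change of given size easier to detect. The rises were in MPHOSPH8, a subunit of the silencing complex HUSH (0.52 ± 0.09, edgeR adjusted p = 0.000128), FAM208B, a relative of another HUSH subunit (0.55 ± 0.12, 0.0019), UHRF1, which guides maintenance of DNA methylation (0.35 ± 0.08, 0.00438), the DNA methyltransferase gene DNMT3A (0.33 ± 0.11, 0.0495) and ZNF274. The lower gene was CBX5, which encodes a heterochromatin protein (-0.26 ± 0.09, edgeR adjusted p = 0.0437). TRIM28 had 3237, 3518, 2228 and 2510 counts in EJ vector, EJ circ, T24T vector and T24T circ. It was lower in T24T (-0.65 ± 0.08, edgeR adjusted p = 1.3e-07), and with circ it did not pass (0.16 ± 0.08, adjusted p = 0.237). TRIM28 itself lies at the long-arm end of chromosome 19. SETDB1 passed in neither comparison (circ -0.12 ± 0.10, edgeR adjusted p = 0.513, and line 0.14 ± 0.10, adjusted p = 0.276).

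Of 9 tested Krüppel-type genes of chromosome 19 with other names, 4 were lower in T24T and 0 higher, and the other 5 did not pass, with log2 fold changes on both sides of 0. MZF1, a myeloid zinc finger gene, had the smallest adjusted p (-1.18 ± 0.14, edgeR adjusted p = 3.2e-08). With circ 1 of the 9 rose, ZSCAN5A, with 34 counts without and 62 with circ in EJ, and 19 and 56 in T24T (1.18 ± 0.28, edgeR adjusted p = 0.00442).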

How the data were processed

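RNA sequencing of 4 libraries was deposited as a table of read counts per gene and a table of RPKM. Reads were trimmed with Trimmomatic and aligned with HISAT2 to hg38, per the submitters' processing notes. The versions, the counter, the annotation, the use of strand and the handling of reads with several matches are not given in the sources used here. Without these, reads of near-identical ZNF paralogs, and of the 129 members that share an exon position with another gene, may be split or lost, and antisense reads cannot be told apart. The deposited RPKM equalled count divided by gene length and by total count in all values (relative tolerance 1e-06), so both units hold the same measurement. Columns were matched to samples by their descriptions, which write T24T without its last letter, and 0 other sample columns were left out. Gene lengths came from the deposited count table, and gene types from GENCODE release 29.

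The authors' counts were tested with edgeR 4.0.16 (R 4.3.3) on genes with 10 or more counts in a library and 20 or more in all, with line and transfection as terms. Libraries of 1 cell line form a pair by the labels, so the block is part of the design. Prior degrees of freedom were 30.5. Log2 ratios within a line used a prior count of 2 and have no test, since 1 library per group leaves none. The alternatives used DESeq2 1.42.0 and limma 3.58.1, and their effect is given at the end. Members named are those with the smallest adjusted p per direction and comparison (up to 8), the largest line differences, the highest RPKM, the largest difference of ratios between the lines, and those next to the limit of 20 counts. The members and lists were chosen with earlier results of these data known. ZNF577, ZNF780A, ZNF814, ZNF776, ZNF134 and ZNF230 were added after their values were seen. Protein features were not analysed here. Promoter sequences are RefSeq's, GRCh38.p14, and 189 members matched by symbol and 2 by synonym.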

Additional observations from a re-analysis of the deposited data

Results flagged for a closer look

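In 6 members with 50 or more counts in each line, among those with the largest difference between the lines, circ lay above vector in 1 line and below it in the other, and each of these differences was not tested. The T24T minus EJ difference of the log2 ratios was -0.84 in ZNF823 (0.06 in EJ and -0.78 in T24T), from 85, 83, 99 and 60 counts in EJ vector, EJ circ, T24T vector and T24T circ. In ZNF440 it was -0.85 (0.13 and -0.72), from 78, 80, 126 and 80 counts. In ZNF547 it was -0.78 (0.21 and -0.56), from 44, 48, 36 and 25 counts.

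The opposite order was seen in ZNF524, ZNF563 and ZNF813. ZNF524 had a difference of 1.04 (-0.89 in EJ and 0.15 in T24T), from 75, 37, 77 and 90 counts. ZNF563 had 0.89 (-0.76 and 0.13), from 43, 23, 38 and 44 counts, and ZNF813 had 0.81 (-0.38 and 0.43), from 73, 52, 70 and 100 counts. In each of the 6 genes except ZNF813 and ZNF547 the 95% exact binomial interval of the fold left out 1 in exactly 1 line, and in those 2 in neither. ZNF682 (ratios of 0.35 and 1.25) and ZNF709 (0.86 and 0.01) differed between the lines in size and not in sign.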

How the results depend on the processing

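For circ, 7 members were called in the edgeR fit above. With RLE size factors 14 of 216 were called (9 higher and 5 lower, the 7 among them; 2659 of 17689 genes), and with no filter 12 of 218 (6 and 6, with 6 of the 7; 2248 of 29817 genes). The count was 0 by DESeq2 (1 at an unadjusted p under 0.05), with or without its independent filtering, which left 183 of 216 with no adjusted p, and 334 of 17689 genes were called (256 without the filtering). It was 0 by limma on log2(RPKM + 1) (19 unadjusted) and 0 by edgeR with no replicate block (1 unadjusted), settings in which 0 of all 17689 genes were called. In edgeR with the block 38 members had an unadjusted p under 0.05. The unadjusted counts were not made over all genes, so they are no result about the members. Between the lines, where edgeR called 88 members and 41.4% of all genes, DESeq2 called 18 (1 higher and 17 lower, with or without the filtering; 18.2% of all genes with it). Limma on log2(RPKM + 1) called 48 (3 and 45; 28.7% of all genes) and edgeR with no replicate block 35 (3 and 32; 3192 of 17689 genes). Among the 87 members that share no exon, 3 were called for circ and 32 for the line (29 lower). The settings not named here kept each count within 1.5 times, with limma-voom at 8 and 89. The T24T median ratio of -0.02 was -0.045 with library size alone, -0.046 with no filter, -0.045 with the stricter filter and -0.042 on log2(RPKM + 0.1).

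The long-arm median stayed between -0.51 and -0.26 in every setting run, and the short-arm median between 0.0014 and 0.07. No called named member changed direction in any setting run. The stricter filter kept 13701 genes with 50 or more counts in each line, and edgeR was fitted again on these. In that fit 73 of 185 members (39.5%) were called between the lines, against 42.8% of all genes in it. Leaving out a library leaves no residual degree of freedom, so each line is given alone as a value. The cause of these differences was not tested.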
